A study of Mus musculus with 8 samples.

Results

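The 45 genes described here encode the core machinery of macroautophagy. They were chosen by name, in 8 steps from the ULK initiation complex to the TFEB family of transcription factors, with earlier results of these data known; the rule itself uses no measured value. Peaks were those that the m6A peak lists assigned to one of these gene names. At least 1 peak was listed for 39 of the 45 genes, which together held 135 of 38705 peaks. Peaks of different libraries that overlapped by at least 1 bp were merged, which gave 75 regions on these genes out of 21168 regions on 9778 genes.

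The study compared m6A in the mRNA of wild-type mouse embryonic fibroblasts (MEFs) with and without nutrient starvation. MEFs are primary connective tissue cells grown from embryos, here C57BL/6 embryos at 13.5 days. Control cells stayed in full medium, and starved cells spent 2 h in nutrient-deprived medium. Each condition had 2 libraries of RNA immunoprecipitated with an m6A antibody (IP), each with its matching input, and all cells were wild type. Peaks were called by the authors in each IP library against its input, so that every peak carried a fold enrichment of IP over input, a score and an FDR in percent. The study describes the 2 libraries of a condition as biological replicates. The labels do not say whether they came from separate cultures or litters, so the sources of the spread between them are not known.

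Autophagy delivers cytoplasmic material to lysosomes inside a double-membraned vesicle, the autophagosome, and is rapidly induced in MEFs by nutrient loss. The ULK kinase complex starts the process, the class III phosphatidylinositol 3-kinase (PI3K) complex marks the growing membrane with phosphatidylinositol 3-phosphate (PI3P), and a pair of ubiquitin-like conjugation systems attach ATG8 proteins such as LC3 to it. Receptors then link cargo to ATG8 proteins, tethers bring the closed vesicle to the lysosome, and TFEB, TFE3 and MITF drive transcription of autophagy and lysosomal genes. N6-methyladenosine (m6A) is a methyl mark placed on adenosines of mRNA by the METTL3 and METTL14 writer complex, usually in the DRACH motif, of which GGAC is the most common core, and often near stop codons.

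Below are the stretches of transcript that carry the calls described in the following paragraphs, in the mm10 build (GRCm38.p6 of RefSeq) and 5′ to 3′ on the transcribed strand. The first pair lies in the coding regions with the highest mean fold enrichment among those called in all 4 libraries. The next 4 lie in coding regions called in both libraries of 1 condition and in neither of the other. The Gabarapl1 site belongs to the only region whose control and starved values did not overlap, and the last sequence is the mature microRNA encoded inside the Vmp1 region. Capitals mark GGAC, or the seed (bases 2 to 8) of the microRNA. A GGAC is a match of letters and not a mapped methylation site.
Optn exon 3, chr2:5052989-5053188, minus strand: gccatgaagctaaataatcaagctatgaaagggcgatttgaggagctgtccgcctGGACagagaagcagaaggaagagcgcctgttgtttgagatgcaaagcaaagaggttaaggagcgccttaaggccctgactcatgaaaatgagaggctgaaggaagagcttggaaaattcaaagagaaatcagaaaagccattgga
Rb1cc1 exon 15, chr1:6249314-6249513, plus strand: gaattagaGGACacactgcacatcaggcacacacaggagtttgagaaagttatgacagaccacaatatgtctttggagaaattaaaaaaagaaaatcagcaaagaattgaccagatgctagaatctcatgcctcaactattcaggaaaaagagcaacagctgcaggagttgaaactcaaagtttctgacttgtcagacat
Rb1cc1 exon 18, chr1:6263044-6263243, plus strand: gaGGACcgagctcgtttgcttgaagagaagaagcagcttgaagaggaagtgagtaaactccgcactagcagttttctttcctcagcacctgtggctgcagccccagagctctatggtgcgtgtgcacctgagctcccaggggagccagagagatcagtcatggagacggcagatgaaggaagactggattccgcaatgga
Pik3r4 exon 3, chr9:105648666-105648799, plus strand: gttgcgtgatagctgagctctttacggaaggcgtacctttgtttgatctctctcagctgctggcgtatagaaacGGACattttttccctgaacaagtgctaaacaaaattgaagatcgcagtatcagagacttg
Atg14 exon 11, chr14:47542840-47543039, minus strand: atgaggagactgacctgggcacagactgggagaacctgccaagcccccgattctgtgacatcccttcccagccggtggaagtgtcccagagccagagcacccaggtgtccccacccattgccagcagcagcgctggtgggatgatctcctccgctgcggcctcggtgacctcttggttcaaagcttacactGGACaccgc
Atg101 exon 3, chr15:101290470-101290669, plus strand: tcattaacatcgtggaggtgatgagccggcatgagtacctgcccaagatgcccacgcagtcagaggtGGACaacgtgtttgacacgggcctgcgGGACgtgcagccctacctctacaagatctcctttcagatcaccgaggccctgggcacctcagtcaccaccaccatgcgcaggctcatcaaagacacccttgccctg
Gabarapl1 exon 1, chr6:129533454-129533483, plus strand: tccagtataaggaGGACcaccccttcgagt
mmu-miR-21a-5p, chr11:86584120-86584141, minus strand: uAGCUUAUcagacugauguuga

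Across the 4 lists, between 8974 and 10103 peaks were listed per library, with scores from 50.01 upward and FDR values between 5.56% and 86.5%. The 135 peaks on autophagy genes had FDR values between 7.52% and 81.0%, with a median of 18.04% against 18.2% for all peaks. No read counts were used here, and the depth behind a peak is unknown. A transcript with little RNA can lack a peak whatever its methylation, and in bulk RNA fewer cells of a type and less RNA per cell cannot be told apart. Of 8 fibroblast markers 5 had a peak and 2 (Pdgfra and Pdgfrb) had one in all 4 lists, while Col1a1, Vim and S100a4 had none; peak lists do not measure transcript level. Replicate values differed widely. Among autophagy gene regions called in both libraries of a condition, the larger fold enrichment was a median 1.94 times the smaller in the 17 control regions and 3.67 times in the 16 starved regions. Over all regions called in both libraries of a condition the same medians were 1.67 and 1.85.

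The first question was how many autophagy transcripts carried a peak in each condition. Peaks were listed for 22 and 21 of the 45 genes in the control libraries and for 26 and 24 in the starved libraries. The starved libraries thus listed more of these genes than either control library, 25 ± 1.41 against 21.5 ± 0.707 (SD, n = 2 each), although the number of all genes with a peak was 5999 ± 226 in starved and 6278.5 ± 153 in control libraries. With 2 libraries against 2, the smallest two-sided exact permutation p is 0.333, so no difference between conditions could pass a threshold of 0.05. Among the 39 genes with a peak, 11 (28.2%) were listed in starved libraries only, 5 (12.8%) in control libraries only and 23 (59.0%) in both. Over all genes the same shares were 16.4%, 19.3% and 64.3%. Of the 11 genes 9 were seen in 1 starved library, and only Pik3c3 and Atg14 in both. Those 2 are 5.13% of the 39 genes, against 3.19% of all genes. Atg7 alone was listed in both control libraries and no starved one, which is 2.56% against 4.56%.

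The number of peaks on these genes did not follow the number of genes. There were 34 peaks in each control library against 34 and 33 in starved MEFs, between 0.337% and 0.368% of each list. Their median fold enrichment was 14.0 and 14.1 in control MEFs against 9.37 and 16.6 in starved MEFs. The 2 starved values lie on either side of both control values, whereas the median over all peaks was 12.2 and 12.3 in control MEFs against 14.6 and 14.7 in starved MEFs.

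**Figure D1:**
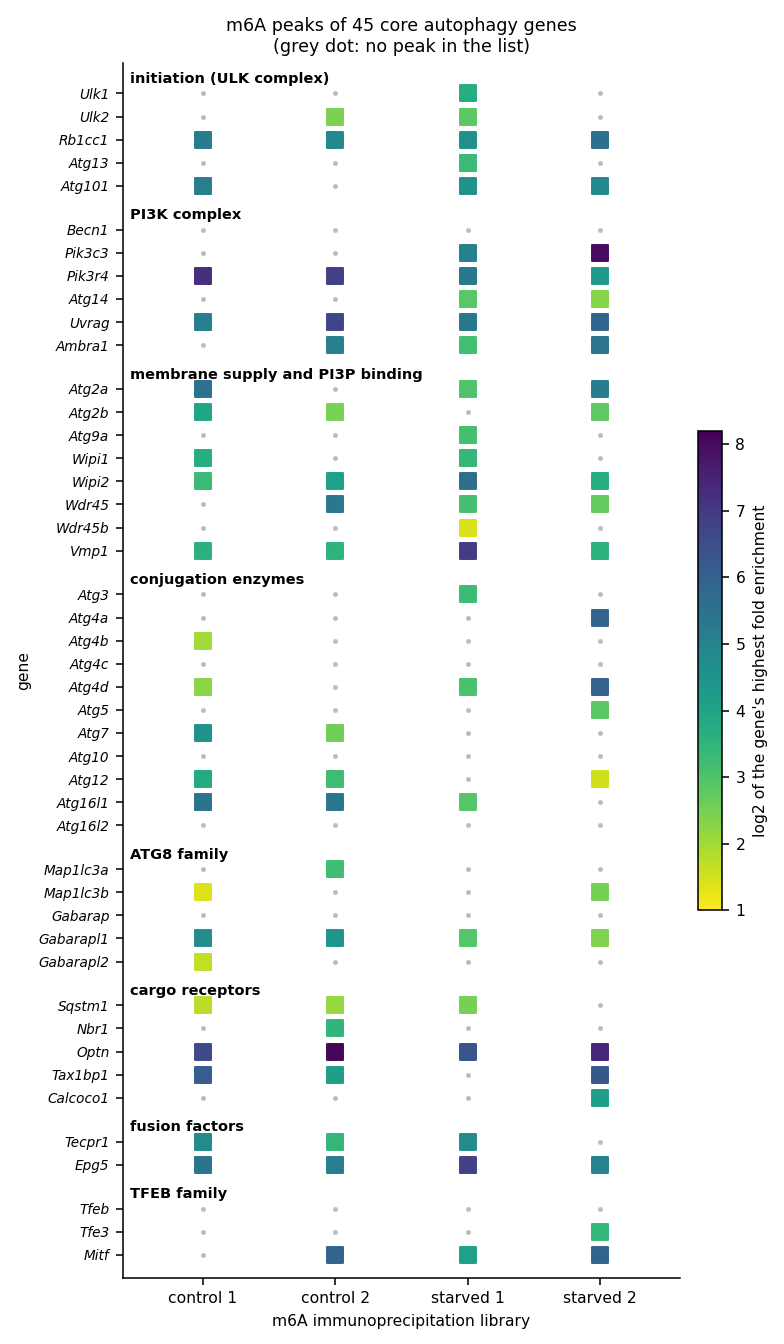
Each row is 1 of the 45 autophagy genes, grouped by step, and each column is 1 IP library. A square marks a gene with a peak and its colour the log2 of the gene's highest fold enrichment, and a grey dot marks no peak. All 5 ULK complex genes have a square in starved library 1 and 2 of them in each other library, and Optn and Pik3r4 are among the darkest squares of the control libraries.

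The ULK complex starts autophagosome formation, and each of its 5 genes had a peak in at least 1 library. Peaks were listed for 2 genes in each control library, for all 5 in starved library 1 and for 2 in starved library 2. Rb1cc1, which encodes the scaffold FIP200, was called in every library and held 5 regions. The highest was in exon 15 of 24 (chr1:6248276-6250167), a long coding exon, with fold enrichments of 37.9 and 28.0 in control MEFs against 24.3 and 48.0 in starved MEFs. The conditions overlapped there, and the log2 difference of starved over control was 0.07 (exact permutation p = 1, two-sided). A second coding region of Rb1cc1, in exon 18 (chr1:6263024-6263264), was called in both control libraries at 8.48 and 16.4 and in no starved library. The peaks there had exactly the limits of the exon. Atg101, a regulatory subunit that pairs with ATG13, gave the reverse pattern: its last exon (chr15:101290268-101290934) was called only in the starved libraries, at 23.9 and 5.47, with its centre 74 nt before the end of the stop codon. Its exon 2 (chr15:101286933-101287250) was called in 1 control library at 34.8 and in the starved libraries at 7.08 and 28.3. Peaks on the kinase Ulk1 (13.3) and on Atg13 (6.17 and 9.98) were in starved library 1 only. Ulk2, the second kinase, had a 3′ UTR peak of 5.37 in control library 2 and another of 7.03 in starved library 1, 52 bases apart, so that they counted as separate regions.

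The PI3K complex had peaks on 2 and 3 of its 6 genes in the control libraries and on 5 in each starved library. Over all genes, 6387 and 6170 had a peak in the control libraries against 6159 and 5839 in the starved libraries. Pik3c3 (VPS34), the lipid kinase itself, had no peak in control libraries. In the starved libraries the region chr18:30330229-30330542 was called at 34.0 and 255, so the 2 libraries were far apart. It lies in the 3′ UTR of a shorter transcript of the gene (exon 22 of 22) that is not the principal one in GENCODE. A peak of 8.19 in the 3′ UTR of the principal transcript was in starved library 1 only. Atg14, the subunit that directs the kinase to the site of autophagosome formation, was called in the starved libraries only, at 7.29 and 4.92 (chr14:47542574-47543143). This region covers the end of the coding sequence in the last exon, its centre 74 nt before the end of the stop codon. Its peak in starved library 2 had a score of 55.6, close to the lowest score of the lists, and with a minimum score of 100 the region was called in starved library 1 only. Becn1 (Beclin 1), the partner of both kinase assemblies, had no peak.

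Pik3r4 (VPS15), the regulatory subunit of VPS34, had 6 regions and a peak in every library, but no region in all 4. A region that starts with its coding exon 3 (chr9:105648666-105648928) was called only in the control libraries, at 148 and 115, the highest values of any group-only region of the control libraries. The exon fills 134 bases of the region, and the other 129 bases lie past its end in the principal transcript. The neighbouring exon 4 (chr9:105650317-105650800) was called at 53.9 in control library 2 and at 7.30 in starved library 1. The start of the transcript was called at 10.6 in control library 1 and 40.25 in starved library 1, and the end at 8.31 in control library 1 and 20.2 in starved library 2. The exons called on this transcript therefore differed from library to library. A missing call does not show that enrichment was absent.

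Uvrag, which replaces ATG14 in the endosomal form of the complex, was the member with 2 regions in all 4 libraries. Its 5′ UTR region (chr7:99140834-99141144) had fold enrichments of 35.6 and 105 in control MEFs against 40.2 and 58.4 in starved MEFs. At the end of its coding sequence (chr7:98887196-98888578) they were 17.5 and 3.91 in control MEFs against 11.7 and 2.97 in starved MEFs. In both regions the 2 libraries of a condition differed more than the conditions did, with log2 differences of -0.33 (exact permutation p = 1) and -0.49 (exact permutation p = 0.667). Ambra1, which binds Beclin 1 and promotes initiation, held 4 regions. The region called in most libraries lies in its last exon, centred 95 nt before the end of the stop codon. Its fold enrichments were 9.01 and 42.4 for starved MEFs against 9.43 for control library 2. Each other Ambra1 region had a single peak. Those of control library 2 were 35.0 in the 5′ UTR and 10.75 in coding exon 7. That of starved library 2 was 4.3, also in exon 7. Control library 1 listed no Ambra1 peak.

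Every one of the 8 genes for membrane supply and PI3P binding had a peak, on 5 and 4 genes in the control libraries and on 7 and 5 in the starved libraries. Wipi2, the PI3P-binding protein that recruits ATG16L1, had a 3′ UTR region in all 4 libraries (chr5:142666860-142668007), at 9.92 and 16.8 in control MEFs against 48.3 and 5.39 in starved MEFs. The starved values enclose the control values (log2 difference 0.32, exact permutation p = 1). A further Wipi2 region 876 bases downstream (chr5:142668884-142669627), in the longer 3′ UTR of a transcript that is not the principal one, was called in the starved libraries only, at 14.9 and 13.4. These 2 values were the closest replicate pair among the starved-only regions.

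Vmp1 encodes an endoplasmic reticulum membrane protein needed for autophagosome formation, and the end of its gene hosts the microRNA gene Mir21a. Its 3′ UTR region (chr11:86583937-86584323) was called at 12.1 and 11.7 in control MEFs against 120 and 12.0 in starved MEFs. Starved library 1 stood apart from the other 3 libraries, which were alike. The log2 difference was 1.68 (exact permutation p = 0.667) and was 0.02 without starved library 1. The whole Mir21a hairpin (chr11:86584067-86584158, same strand) lies inside the region, so fragments of Vmp1 mRNA and of the primary microRNA transcript cannot be told apart there.

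Among the other genes of this step, Wdr45, another PI3P-binding protein, was called at 39.7 in control library 2 and at 8.84 and 6.69 in the starved libraries. The lipid transfer protein genes Atg2a and Atg2b had 3′ UTR regions in 3 libraries each, with fold enrichments between 7.93 and 36.6 and between 5.55 and 15.2. The highest Atg2a value, 45.5, was a peak in coding exon 31 in control library 1 only. Atg9a, whose product is the transmembrane scramblase of the pathway, and Wdr45b were called in starved library 1 only, at 8.91 and 2.70. Wipi1 had a peak in 1 library of each condition, at different places of its 3′ UTR.

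Of the 11 conjugation enzyme genes 8 had a peak. Of their 13 regions 9 (69.2%) were called in a single library, against 56.2% of all regions, and none in all 4. Atg7 encodes the E1-like enzyme that both conjugation systems share. Its 3′ UTR (chr6:114859581-114860256) was called in the control libraries only, at 22.9 and 5.96, the latter with a score of 89.7, below the same minimum. Atg12, the ubiquitin-like protein joined to ATG5, also had a 3′ UTR region called only in the control libraries (chr18:46734009-46734509), at 13.9 and 9.43, and a separate peak of 2.85 in starved library 2. Atg16l1, which places the ATG12 and ATG5 conjugate on the membrane, was called in its 3′ UTR at 7.45 and 41.6 in the control libraries and at 7.52 in starved library 1. Further Atg16l1 peaks of 43.5 and 9.80, in control library 1 only, could not be placed on a coding transcript. Atg3, the E2-like enzyme for ATG8 proteins, had 1 peak (9.73, starved library 1), as did Atg5 (7.15, starved library 2).

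The ATG4 proteases process ATG8 proteins before conjugation and remove them from membranes afterwards. Atg4d had 2 regions in its 3′ UTR over 3 libraries, with fold enrichments between 4.86 and 63.4, in a stretch where the gene overlaps Kri1. The peak calling is not stated to use strand, so reads of the 2 genes cannot be told apart. Atg4b had 1 peak (3.97, control library 1). Atg4a had a peak of 11.5 on the X chromosome and one of 60.8 on chromosome 3 (chr3:103644640-103645011), both in starved library 2. The latter lies at the annotated pseudogene Atg4a-ps inside Syt6, and its assignment to Atg4a is uncertain. Atg4c, Atg10 and Atg16l2 had no peak in any library.

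ATG8 proteins coat the autophagosome membrane and bind cargo receptors, and 4 of the 5 genes had a peak. Gabarapl1 was the only gene of the whole set whose 2 control values lay apart from its 2 starved values in a region called in all 4 libraries. The region covers exon 1 of 4 (chr6:129533192-129533536), with the 5′ UTR and the start of the coding sequence. Its fold enrichments were 25.3 and 21.7 in control MEFs against 7.63 and 5.30 in starved MEFs. The log2 difference was -1.88, with SDs of 0.16 in control and 0.37 in starved libraries (n = 2 each, exact permutation p = 0.333, the smallest possible). Over all 2257 regions called in every library, both control values lay above both starved values in 18%, so 1 of 7 (14.3%) is near the background. The peak of starved library 2 had a score of 53.9, and with a minimum score of 100 the region was no longer called in all 4 libraries. The region also overlaps the lncRNA gene 1700101I11Rik.

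The LC3 genes were called in fewer libraries than Gabarapl1. Map1lc3b, the LC3 form used as the standard autophagosome marker, had 3′ UTR peaks of 2.58 in control library 1 and 5.70 in starved library 2. Map1lc3a had 1 peak of 9.17 in control library 2 and Gabarapl2 had 1 of 3.22 in control library 1, both in the 3′ UTR. No peak was listed for Gabarap.

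All 5 cargo receptor genes had a peak. Optn (optineurin, a receptor for ubiquitinated mitochondria and bacteria) had the highest fold enrichments of the set that were repeated in every library: 96.1 and 267 in control MEFs against 78.7 and 172 in starved MEFs. The 4 peaks had the same limits, those of coding exon 3 of 14 (chr2:5052988-5053190). The conditions overlapped (log2 difference -0.46, exact permutation p = 0.667). Sqstm1 (p62), the receptor most used to follow autophagic flux, was called in coding exon 3 of 8 (chr11:50207407-50207636) at only 3.36 and 4.39 in the control libraries and 5.71 in starved library 1. Tax1bp1 had its main call in exon 9 (chr6:52741951-52742175), at 69.0 and 18.03 in control libraries and 76.3 in starved library 2. Nbr1 (11.3, control library 2) and Calcoco1 (18.3, starved library 2) had 1 peak each.

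Of the 2 tethering factors, Epg5, which acts in fusion with late endosomes and lysosomes, was called in every library and in 6 places. Its coding exon 33 of 44 (chr18:78015679-78015880) was called only in the control libraries, at 44.3 and 36.3. Its exon 41 was called at 113 in starved library 1 and nowhere else, and its 3′ UTR at 6.53 and 21.3 in control libraries and 20.1 in starved library 2. Another 3′ UTR peak of 33.0, 67 bases away, was in starved library 2 only. Tecpr1 was called in its 3′ UTR at 10.9 in control library 2 and 26.8 in starved library 1. Another Tecpr1 peak of 27.8, in control library 1 only, could not be placed on a coding transcript. Among the transcription factors, Tfeb had no peak and Tfe3 a single one (11.0, starved library 2), in a stretch that overlaps Gm39487. Mitf was called in its 3′ UTR at 60.2 in control library 2 and at 17.3 and 58.7 in the starved libraries. The coding part of the same Mitf exon was called at 45.7 in control library 2 and 13.7 in starved library 2. None of the 3 transcription factor genes had a peak in control library 1.

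**Figure D2:**
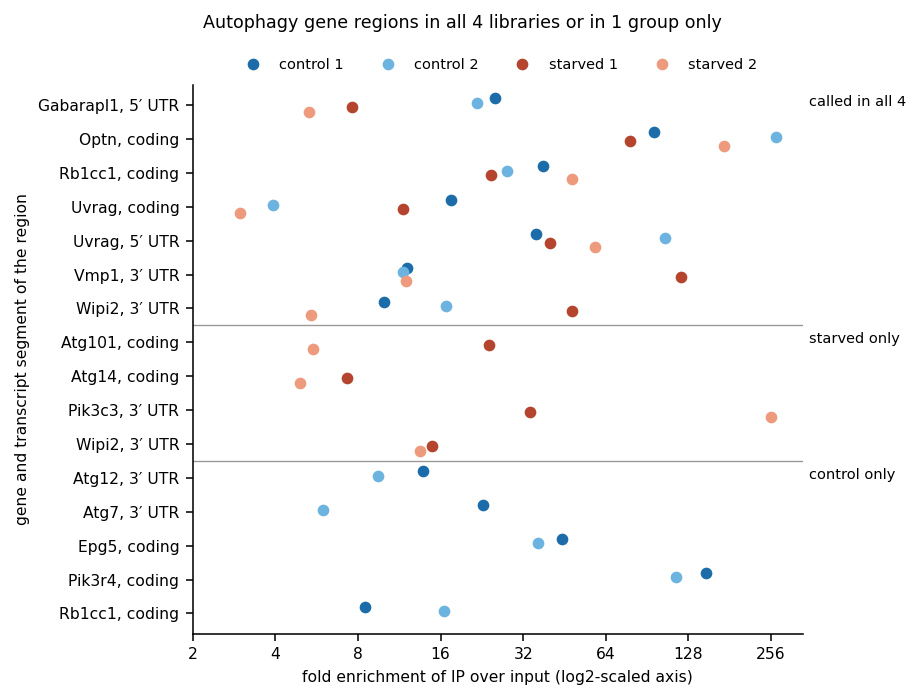
Points give the fold enrichment (horizontal log2-scaled axis) in each library for the 7 regions called in all 4 libraries, the 4 called in the starved libraries only and the 5 called in the control libraries only. Gabarapl1 is the only one of the first 7 with its control points apart from its starved points, and the single high Vmp1 point is starved library 1.

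Calls in 1 condition only were then set against the whole series. Regions called in both starved and neither control library numbered 4 of 75 (5.33%), against 3.2% of all regions. Those called in both control and neither starved library numbered 5 of 75 (6.67%), against 4.15%. Of the 7 regions called in every library none had both starved values above both control values, against 22.9% of all such regions. The median log2 difference over the 7 was -0.33, and it was 0.10 over all 2257. The 7 single differences ranged from -1.88 at Gabarapl1 to 1.68 at Vmp1, so the median says little about any one transcript. The 4 starved-only regions were in Atg101, Atg14, Pik3c3 and Wipi2, and the 5 control-only regions in Rb1cc1, Pik3r4, Atg7, Atg12 and Epg5.

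Of the 135 peaks 94 (69.6%) lay in regions called in at least 2 libraries, against 69.3% of all peaks. Counted by region, a single library held 41 of the 75 regions (54.7%), as it did 56.2% of all regions, and all 4 libraries shared 7 (9.33%), against 10.7%. By gene, 13 of 39 (33.3%) had peaks in 1 library, against 27.9% of all genes, and 8 (20.5%) in all 4, against 29.2%. Those 8 were Rb1cc1, Pik3r4, Uvrag, Wipi2, Vmp1, Gabarapl1, Optn and Epg5. The single-library regions were spread over the libraries, with 10 and 10 in control MEFs against 12 and 9 in starved MEFs. Over all regions the same counts were 3118 and 3118 in control MEFs against 3005 and 2654 in starved MEFs.

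**Figure D3:**
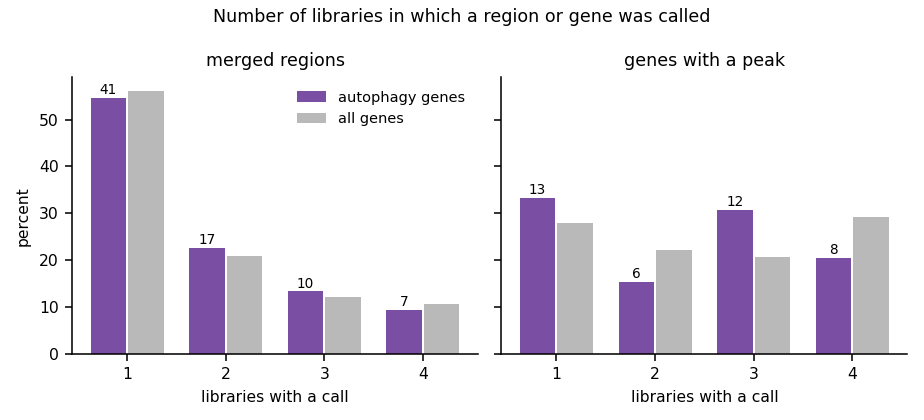
Bars give the percent of merged regions (left) and of genes with a peak (right) called in 1, 2, 3 or 4 libraries, for the autophagy genes (purple, with their number above) and for all genes (grey). The shares of regions are close at every number of libraries, 54.7% against 56.2% for a single library.

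The place of the peaks in the transcripts was compared with that of all peaks. Of the 135 peaks 129 had their centre in an annotated coding transcript. Their centres were in the 3′ UTR in 51.2%, in the coding sequence in 38.8% and in the 5′ UTR in 10.1%, against 44.0%, 51.2% and 4.80% of all placed peaks. The coding share was below that of all peaks in each library, between 29.4% and 45.5% for the autophagy genes and between 50.0% and 52.1% for all genes. Within 100 nt of the stop codon lay 14.0% of their peaks, against 12.6%. By library this share was 13.3% and 3.03% (control), 14.7% and 25.0% (starved), from 4, 1, 5 and 8 peaks. Over all placed peaks it was 13.1% and 12.5% (control), 12.2% and 12.6% (starved). The 2 starved-only coding regions, in Atg14 and Atg101, are both at stop codons, while the 3 control-only coding regions, in Rb1cc1, Pik3r4 and Epg5, have their centres in internal exons. The Pik3r4 centre lies close to the exon end, and 129 of that region's 263 bases lie past the exon. The other group-only regions, of Pik3c3 and Wipi2 (starved) and of Atg7 and Atg12 (control), lie in 3′ UTRs. The places of group-only regions over all genes were not compared, so these few regions show no difference in place between conditions. Both limits of a peak were the limits of an exon for 21 of the 129 peaks (16.3%), among them all 4 on Optn, against 12.0% of all placed peaks. Whether enrichment ran on into the next exon of the spliced transcript is not shown by such peaks.

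**Figure D4:**
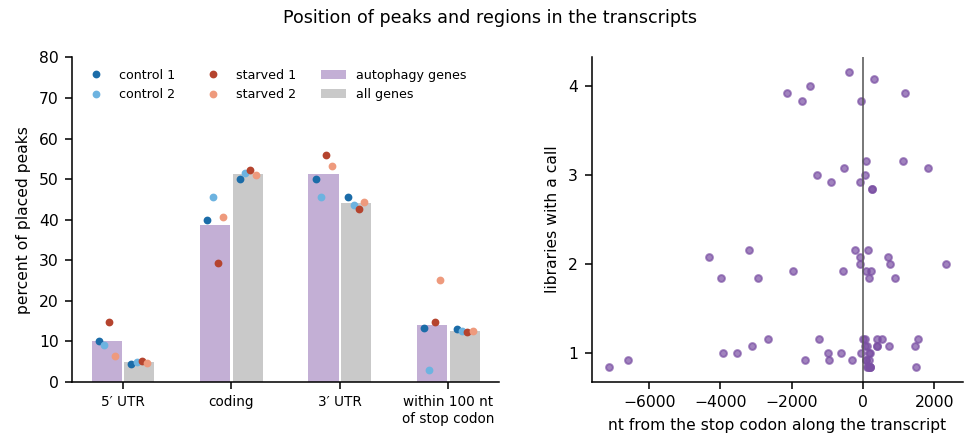
Left, bars give the percent of placed peaks in each transcript segment and within 100 nt of the stop codon, for the autophagy genes (purple) and all genes (grey), and points give the single libraries. Right, each point is a region of an autophagy gene, by its distance in nt from the stop codon and the number of libraries that called it; the coding share is lower for the autophagy genes, 38.8% against 51.2%.

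The GGAC core was searched on the transcribed strand in the 100 bases at the centre of each placed peak. It was present in 43.3% and 45.5% of the autophagy gene windows of control MEFs and in 50.0% in each starved library, 61 of 129 in all (47.3%). Among all peaks the share was 41.2%, with 40.2% and 40.9% in the control libraries and 42.0% in each starved library. The longer GGACT was in 17.1% of the autophagy gene windows and in 15.0% of all. Over the whole peak, of any length, GGAC was found in 82.2% and 81.3%. For the autophagy genes this share was 76.7% and 87.9% in control MEFs against 79.4% and 84.4% in starved MEFs, so the conditions overlapped. Of the regions described in full and not on chromosome 18, the Vmp1 region was the only one with no GGAC on the transcribed strand. Uvrag had the most, with 8 in its 1383 bases at the end of the coding sequence, and Wipi2 had 7 in its main 3′ UTR region. The Optn exon held 1.

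Another 48 genes of autophagy regulation, vesicle fusion and the lysosome were described for comparison. Peaks were listed for 41 of them, on 25 and 25 genes in the control libraries and on 22 and 31 in the starved libraries. They held 83 regions, of which 54 (65.1%) were in 1 library and 6 in all 4. Over all regions these shares were 56.2% and 10.7%. None was called in both starved libraries only, against 3.2% of all regions, and 3 (3.61%) were called in both control libraries only, against 4.15%. These were in Snap29 (33.9 and 64.1), which encodes a SNARE of autophagosome fusion, and 2 regions of Trp53inp2 (5.82 and 16.9, and 5.37 and 3.93), which encodes a protein that binds ATG8 proteins. Both control values lay above both starved values in 2 of the 6, against 18% of all such regions. These were in Vps33a, a subunit of the HOPS tether (234 and 149 against 70.2 and 71.4), and in Rab1b, a vesicle traffic GTPase (15.1 and 15.3 against 4.35 and 12.9). None of the 6 had both starved values above both control values, against 22.9% of all such regions.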

How the data were processed

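m6A was measured by MeRIP-seq of polyadenylated RNA from MEFs, with a directional library kit. Per the study's methods, the authors removed adaptors (Cutadapt) and mapped the reads to the mm10 genome by HISAT2 (version 2.0.4), called peaks with MACS2 in each IP library against its input, and kept peaks on mRNA exons with their own scripts. The deposited values used here were the fold enrichment (a linear ratio of IP over input), the caller's score and the FDR in percent, per peak and per library. The column names are those of an earlier MACS release, so the version that made the deposited score, a number that many peaks share at 3100, is uncertain. A further table holding the authors' own comparison of the conditions (fold changes, p-values and FDR) was not used. Depth per library is unknown from these lists, and no interval for counting error could be given.

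The 45 genes, their steps and the 48 other genes were chosen with earlier results of these data known. Peaks were merged across libraries where they overlapped by at least 1 bp, and a region took the highest fold enrichment of each library. Differences are means of log2 fold enrichment, starved minus control, tested for single regions called in all 4 libraries with the two-sided exact permutation test over 3 distinct groupings of the 4 libraries. Regions, genes and sequences to be given in full were named by a fixed rule: regions called in all 4 libraries or in both libraries of 1 condition only. Of the other regions some were given by single values and some by counts or ranges, and not every value is printed. Peak centres were placed on GENCODE M21 coding transcripts (mm10), principal ones first, and sequences came from RefSeq GRCm38.p6. All 39 gene names matched current symbols. Alternatives were a minimum fold enrichment of 4, a minimum score of 100, equal numbers of peaks (8974) per library, an overlap of 50% of the shorter peak, the mean of several peaks, assignment by position, division by the library median, a replicate block and leaving out each library. Calculations used Python 3.11.15, pandas 2.3.3, numpy 2.4.6, scipy 1.17.1 and pysam, and the merging and calling code was tested on simulated data.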

Additional observations from a re-analysis of the deposited data

How the results depend on the processing

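The difference of 3.5 in autophagy genes with a peak, starved over control, was 5 with equal numbers of peaks and 2.5 to 4.5 when a library was left out. The difference in peaks (-0.5) was 2 by position, 1 at a minimum of 4-fold, 0 at a minimum score of 100, 2 with equal numbers, and -1 to 0 without single libraries. At that score minimum the count of regions with both control above both starved values went from 1 to 0, because the region was then called in fewer libraries. Control-only regions numbered 4 instead of 5 at that score minimum, with equal numbers of peaks and with the 50% overlap. Starved-only regions numbered 3 instead of 4 at that score minimum. Leaving out a library asks for fewer calls: starved-only regions numbered 6 to 17, control-only regions 7 to 15, regions with starved above control 1 to 3, and the reverse 3 to 5. The median log2 difference over the 7 regions was -0.33, and -0.55 with fold enrichments divided by the library median. Without single libraries the median ran from -0.49 to 0.28, over the 9 or 10 regions then called in every library left. Dividing each library by its median, which removes a shift of 0.21 over all regions, turned the Rb1cc1 exon 15 difference to -0.14. Without single libraries that difference ran from -0.42 to 0.56, Wipi2 from -1.26 to 1.91, the coding Uvrag region from -1.57 to 0.59, its 5′ UTR region from -1.11 to 0.45 and Optn from -1.20 to 0.28; Gabarapl1 stayed between -2.15 and -1.62.

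The labels give same-numbered libraries a shared number and do not say whether they were prepared as pairs. Their deviations from the condition means had a correlation of -0.02 over 2257 regions. With 2 libraries per condition this value cannot decide whether they were paired. With a replicate block, in which starved 1 was set against control 1 and starved 2 against control 2, 3 regions had both paired differences below 0 and 1 had both above. The number of libraries and the unknown depth limit these data, since counting error could not be computed and the input libraries were not analysed here.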

Other observations

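Several autophagy transcripts carried peaks in internal coding exons whose limits were those of the exon. Besides Optn exon 3, those seen in at least 2 libraries were Sqstm1 exon 3 of 8 in 3 libraries, Epg5 exon 33 of 44 and Rb1cc1 exon 18 of 24 in both control libraries, and Rb1cc1 exon 7 and Tax1bp1 exon 9 in 1 library of each condition. The Sqstm1, Rb1cc1 exon 7 and Tax1bp1 exons held no GGAC on the transcribed strand, while the Epg5 exon 33 held 2. The internal exons that held a coding region of these genes had a median length of 244 nt, against 118 nt for all their internal exons. No peak of the lists was shorter than 200 bp. This minimum by itself favours longer exons, so these medians do not show a preference of peaks for long exons.

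The 6 genes without a peak had principal transcripts with a median length of 2737 nt, and the 39 genes with a peak 3285 nt. Among the genes without a peak are Becn1, Gabarap and Tfeb, each a single member of its step without one.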
